A study of Mus musculus with 4 samples.

Results

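The collagen genes are the members of the mouse collagen family that the array names with the symbol Col, a type number, the letter a and a chain number. This rule on names, which used no measured value, took 81 of the 41174 non-control probes of the array, on 99 of its 43379 non-control spots, and these probes name 40 genes. By the type of assembly that the chains form, 11 genes (26 probes) are fibrillar collagens, 6 genes (13 probes) are basement membrane collagens and 23 genes (42 probes) are other collagens. The RNA came from 3T3-L1 cells, a mouse preadipocyte line that becomes fat cells after hormonal induction, harvested on day 2 of induction. The 4 conditions, each read on 1 array, were the vehicle control (0.1% DMSO), bilberry extract at 100 μg/mL, delphinidin at 100 nM, and cyanidin at 100 nM. All 4 cultures also received 10 μg/mL insulin, 1 μM dexamethasone and 0.5 μM IBMX, the hormonal mixture that starts differentiation, so that the DMSO array is a differentiating control and not a resting one. Bilberry extract is a plant extract rich in anthocyanidins, and delphinidin and cyanidin are 2 of these pigments, of which delphinidin carries an additional hydroxyl group on the B-ring. The paper states that the extract and the pigments were dissolved in DMSO, and that the medium held 0.1% DMSO in all experiments. There were no replicates, so none of the differences below has a test across samples or a p-value, and the spread between cultures is unknown.

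Collagens are secreted proteins whose chains wind around each other in a triple helix. Fibrillar collagens (types I, II, III, V, XI, XXIV and XXVII) are cleaved outside the cell and pack into cross-linked fibrils, with type V chains controlling fibril width. Type IV chains form the sheet-like net of basement membranes, type VI chains form beaded filaments, and FACIT collagens (types IX, XII, XIV, XVI, XIX, XX and XXII) sit on the surface of fibrils. Type VII forms anchoring fibrils under epithelia, types XV and XVIII (multiplexins) lie at basement membranes, and types XIII, XVII, XXIII and XXV span the cell membrane. Preadipocytes are known to make a fibrillar matrix that gives way to a matrix richer in types IV and VI as they become fat cells.

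Of the 40 collagen genes, 32 have an entry in a RefSeq promoter table of GRCm38.p6. The 250 bases upstream of the start are shown 5′ to 3′ for a pair of genes of the main fibrils, Col1a2 (chr6:4505368-4505617, plus strand) and Col3a1 (chr1:45311288-45311537, plus strand), and for a pair of other collagens with lower signals under treatment, Col7a1 (chr9:108953336-108953585, plus strand) and Col15a1 (chr4:47207762-47208011, plus strand). Capitals mark every match, on either strand, to a TATA box written TATAAA. They also mark the box known as CCAAT on either strand, and the GC box, for which the letters GGGCGG were searched on either strand. No matches overlap in these 4 windows.
Col1a2: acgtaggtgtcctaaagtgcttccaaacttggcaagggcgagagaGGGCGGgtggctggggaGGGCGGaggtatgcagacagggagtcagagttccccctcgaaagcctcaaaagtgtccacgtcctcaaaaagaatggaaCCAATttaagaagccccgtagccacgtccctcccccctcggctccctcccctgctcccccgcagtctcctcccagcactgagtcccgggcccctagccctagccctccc
Col3a1: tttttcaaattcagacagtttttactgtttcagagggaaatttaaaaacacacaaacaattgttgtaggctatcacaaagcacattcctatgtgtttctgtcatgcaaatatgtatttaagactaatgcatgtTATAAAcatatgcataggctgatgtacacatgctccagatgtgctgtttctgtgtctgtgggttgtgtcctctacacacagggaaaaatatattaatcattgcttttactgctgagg
Col7a1: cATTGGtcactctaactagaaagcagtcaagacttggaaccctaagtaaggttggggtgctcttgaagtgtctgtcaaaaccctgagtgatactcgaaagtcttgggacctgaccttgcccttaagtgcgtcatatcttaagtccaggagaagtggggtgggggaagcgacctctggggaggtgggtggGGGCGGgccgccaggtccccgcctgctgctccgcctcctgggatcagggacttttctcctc
Col15a1: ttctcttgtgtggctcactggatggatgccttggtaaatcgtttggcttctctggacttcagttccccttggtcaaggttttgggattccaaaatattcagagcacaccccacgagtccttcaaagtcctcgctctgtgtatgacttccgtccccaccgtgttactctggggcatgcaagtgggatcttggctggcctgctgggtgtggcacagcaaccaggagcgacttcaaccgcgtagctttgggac
Col1a2 holds CCAAT with its left end 109 bases before the start and GGGCGG at 205 and 188 bases. Col3a1 holds TATAAA at 117 bases and neither of the other motifs. Col7a1 holds the reverse form of CCAAT at 249 bases and GGGCGG at 61 bases, and Col15a1 has no match. Over the windows of the 32 collagen genes, TATAAA was present in 5 (15.6%), CCAAT in 11 (34.4%) and GGGCGG in 18 (56.2%), and over all 32851 windows of the table the shares were 12.4%, 33.8% and 32.7%. The median GC content was 60% for the collagen windows and 52.4% for all windows. These matches describe the letters only, since no binding was measured. Col4a1 (minus strand) and Col4a2 (plus strand) on chromosome 8 have starts 21 bases apart in the same table. The starts are placed so that the first bases of both genes overlap.

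A probe is called well above background here when the scanner software marks it so, and 50 of the 81 collagen probes (61.7%) were so on all 4 arrays, against 52.1% of all probes. Another 25 collagen probes (30.9%) were well above background on none, against 35.5% of all probes, and 6 on some. By gene, 28 of the 40 had a probe well above background on all 4 arrays, and these were 10 of 11 fibrillar, 5 of 6 basement membrane and 13 of 23 other collagens. Col9a3, Col22a1 and Col25a1 reached this level on some arrays. Col4a3, Col24a1, Col10a1, Col13a1, Col14a1, Col19a1, Col28a1, Col8a2 and Col9a1 reached it on none, and no ratio is read for them. On the DMSO array 55 collagen probes were well above background, against 50 on the bilberry array and 54 on each anthocyanidin array, where 55.3% of all probes were so on the bilberry array and 58.4% to 60.6% on the others, and no collagen spot was saturated.

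The arrays differ in overall brightness, and signals were scaled to the array's 75th percentile, an intensity of 860.9 for DMSO, 576.1 for bilberry, 1009 for delphinidin and 1016 for cyanidin. Levels below are log2 values of this scaled signal, so that 0 is the 75th percentile of the array, and a level can be compared between arrays but not between probes. Scaling to the spike-in control RNAs in place of the 75th percentile lowered the bilberry median of all genes by 1.53 and raised those of delphinidin and cyanidin by 0.26 and 0.24, so that any bilberry ratio to DMSO below 1.53 would lie below 0 under that scaling, and the directions given below hold for the 75th percentile scaling. Every listed marker of adipocytes (7 of 7) and of fibroblasts and preadipocytes (6 of 6) passed the background mark on all 4 arrays, whereas the endothelial markers Pecam1, Cdh5 and Tek passed it on none. Of the epithelial markers, Epcam and Cdh1 were well above background on no array, Krt5 on 3 and Krt14 on all 4. Among the leukocyte and macrophage markers, Csf1r was so on all 4 arrays and Ptprc, Adgre1 and Itgam on none. The osteoblast marker Bglap1 was so on 2 arrays and Ibsp on none, while Sp7 had no probe.

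With bilberry extract, the collagen genes lay lower than genes in general. Their median log2 ratio to DMSO was -0.30 over 28 genes, against 0.17 over 12081 named genes, each gene taken by its brightest probe and kept if well above background on both arrays, and 23 of the 28 collagen genes lay below the all-gene median. The other collagens were the lowest class with a median of -0.48 (13 genes), followed by the fibrillar collagens at -0.20 (10 genes) and the basement membrane collagens at 0.10 (5 genes). This order depends on the processing. Less the all-gene median, the fibrillar value lay between -0.81 and -0.01 over the settings tried and that of the other collagens between -0.66 and -0.44, and the fibrillar class was the lower one under the background correction fitted on all spots (-0.81 against -0.66) and without the detection filter (-0.45 against -0.44). Of 50 collagen probes compared, 2 (4.0%) were over 2-fold higher than on the DMSO array, where 4.3% of all probes were, and 6 were over 2-fold lower, where 6.93% of all probes were. The share of higher probes was thus close to that of all probes, and the share of lower probes was above it on a count of 6.

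With delphinidin the collagen median was -0.24 over 30 genes, against -0.02 over 12595 genes, and 23 of the 30 genes lay below the all-gene median. The median was -0.06 for fibrillar, -0.09 for basement membrane and -0.34 for other collagens, and less the all-gene median the fibrillar value ran from -0.09 to 0.06 over the settings, so that its direction is not settled. The basement membrane value likewise ran across 0, from -0.12 to 0.07 with delphinidin, -0.11 to 0.01 with cyanidin and -0.35 to 0.02 with bilberry. Of 54 probes compared, 0 were over 2-fold higher (1.08% of all probes) and 3 (5.56%) were over 2-fold lower (1.84% of all probes). With cyanidin the median was -0.26 over 29 genes, against 0.01 over 12567 genes, and 26 of the 29 genes lay below the all-gene median. The class medians were -0.23 for fibrillar, -0.09 for basement membrane and -0.41 for other collagens. Of 53 probes compared, 0 were over 2-fold higher (0.595% of all probes) and 3 (5.66%) were over 2-fold lower (2.23% of all probes). Under the background correction fitted on all spots, 1 probe was over 2-fold lower with delphinidin (0.65% of all probes) and 1 with cyanidin (0.569%). These 3 comparisons use the same DMSO array and are not independent of each other. The median of all collagen genes less that of all genes stayed below 0 in each of the 3 comparisons under the 8 alternatives that could move it, between -0.69 and -0.24 with bilberry, -0.23 and -0.12 with delphinidin and -0.30 and -0.20 with cyanidin.

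**Figure D1:**
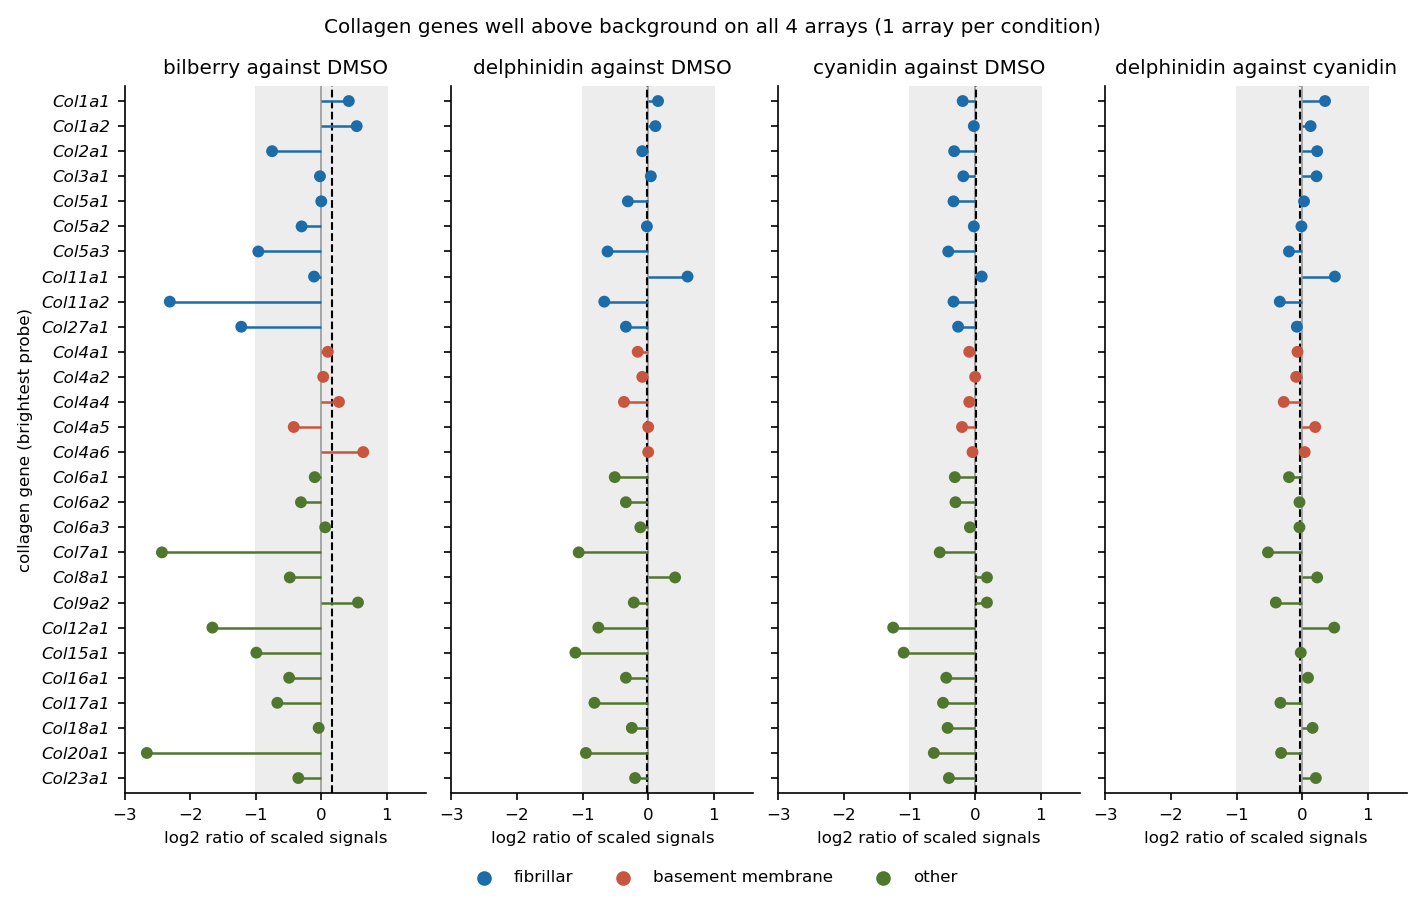
Log2 ratio of scaled signals (horizontal axis) for the 28 collagen genes whose brightest probe was well above background on all 4 arrays, in 4 comparisons of 1 array with 1 array. Colours give the class, the grey band the range within 2-fold and the dashed line the median of all genes; Col20a1, Col7a1 and Col11a2 lie farthest left with bilberry, and the basement membrane genes stay inside the band in every panel.

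**Figure D2:**
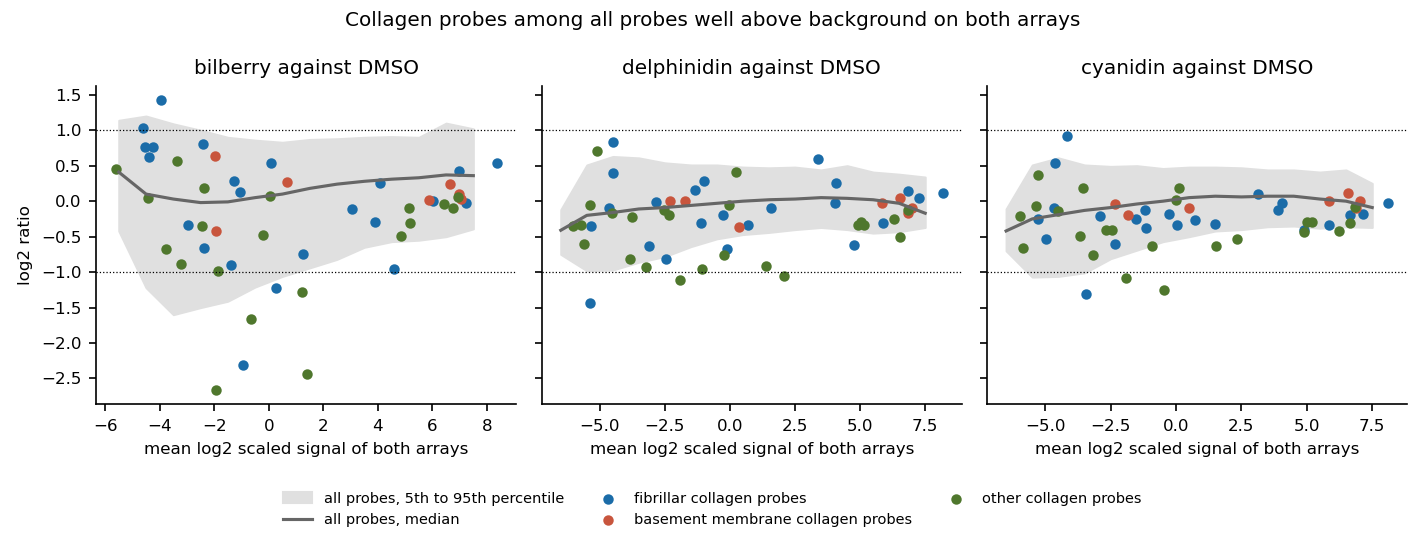
Log2 ratio to DMSO (vertical axis) against the mean log2 scaled signal of both arrays (horizontal axis) for collagen probes well above background on both arrays, with the median and the 5th to 95th percentile of all such probes in grey. The spread of all probes is wider with bilberry than with delphinidin or cyanidin, and most collagen probes of each panel lie inside it.

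The chains of the main fibrils stayed within 2-fold of DMSO on their brightest probes. Col1a1, the gene of the alpha 1 chain of type I collagen, had a log2 level of 6.75 ± 0.035 for DMSO (SD, 9 spots), 7.18 ± 0.027 for bilberry (9 spots), 6.91 ± 0.041 for delphinidin (10 spots) and 6.56 ± 0.018 for cyanidin (10 spots) on the probe at chr11:94767851-94767910. All positions of probes are on mm8, as the files give them. The replicate spots of the 4 arrays did not overlap, bilberry being highest and cyanidin lowest, which shows the error within an array and not that between cultures. Both other Col1a1 probes kept this direction, with differences from DMSO of 0.26 and 0.28 for bilberry, 0.26 and 0.16 for delphinidin and -0.12 and -0.25 for cyanidin.

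Col1a2, which encodes the partner chain of type I, was at 8.11 for DMSO, 8.65 for bilberry, 8.23 for delphinidin and 8.09 for cyanidin (chr6:4490619-4490678). The bilberry array was thus the highest, by 0.54 over DMSO, and delphinidin and cyanidin differed from DMSO by 0.11 and -0.02. Bright probes were in general higher with bilberry, the median ratio of all probes being 0.36 at mean levels from 7 to 8. The Col1a2 probe, at 8.11 for DMSO and 8.65 for bilberry, lies above that range. A dimmer Col1a2 probe had ratios of 0.76, -0.09 and -0.10 to DMSO for bilberry, delphinidin and cyanidin. The higher bilberry values of Col1a1 and Col1a2 depend on the processing, being 0.10 and 0.15 under quantile normalization, -0.23 and -0.10 under the background correction fitted on all spots, 0.37 and 0.50 under its refit without spots of marked local background, and -1.11 and -0.99 under spike-in scaling. Col3a1, the gene of type III collagen, was at 7.23, 7.21, 7.27 and 7.05 with DMSO, bilberry, delphinidin and cyanidin (chr1:45293290-45293349). Its levels on this probe differed by 0.22 at most, between delphinidin and cyanidin, and a dimmer probe had ratios of 0.13, 0.29 and -0.13 to DMSO. Its bilberry ratio was -0.67 under the background correction fitted on all spots and -0.36 under quantile normalization.

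Among the type V chains, Col5a1 was at 6.03 for DMSO, 6.03 for bilberry, 5.72 for delphinidin and 5.70 for cyanidin (chr2:27859381-27859440). Both anthocyanidin arrays lay below the other pair, by 0.31 and 0.33 against DMSO, and its dimmer probe had ratios of 0.54, -0.20 and -0.18. The bilberry ratio of the Col5a1 probe, 0.00, was -0.64 and -0.28 under the same pair of settings. Col5a2 was at 4.05, 3.75, 4.03 and 4.04 in the same order of arrays (chr1:45321322-45321381), with bilberry lowest. Col5a3, a chain of the less common type V trimer, was at 5.08 for DMSO, 4.12 for bilberry, 4.46 for delphinidin and 4.67 for cyanidin (chr9:20520550-20520609). It was highest with DMSO, and its other probe had ratios of -0.66, -0.81 and -0.60 to DMSO.

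Of the fibrillar probes past 2-fold, all but a Col3a1 probe described below were of Col11a2 and Col27a1. Col11a2, a type XI chain known from cartilage, was at 0.21 for DMSO, -2.10 for bilberry, -0.45 for delphinidin and -0.11 for cyanidin on its brighter probe (chr17:33676507-33676566). The bilberry array was lowest, with a log2 ratio to DMSO of -2.31, and delphinidin (-0.67) and cyanidin (-0.33) lay between. Under the background correction fitted on all spots the bilberry ratio was -0.82, short of 2-fold. The dimmer Col11a2 probe (chr17:33662796-33662962) did not follow it, with levels of -4.65, -3.23, -6.09 and -3.73 in that order of arrays. There bilberry was the highest, at a ratio of 1.42, and delphinidin the lowest, at -1.44 to DMSO, so the probes of this gene differed by 3.73 with bilberry. The values of the dimmer probe are unsteady, the bilberry ratio being 2.19 under the background correction fitted on all spots, 0.92 under its refit without spots of marked local background and -0.11 under spike-in scaling, and the delphinidin ratio -0.56 under both background corrections. Col27a1, the type XXVII chain, was at 0.87 for DMSO, -0.36 for bilberry, 0.53 for delphinidin and 0.61 for cyanidin (chr4:62820812-62820871). It was lowest with bilberry at a ratio of -1.22, and its other probes had -0.90 and -0.33. The ratio fell short of 2-fold, at -0.94, under the background correction fitted on all spots. A Col27a1 probe designed on a cDNA clone (chr4:62778935-62778994) was at -2.80, -3.13, -3.43 and -4.12, which put cyanidin lowest at -1.31. That cyanidin ratio was -0.84 under both background corrections, and the bilberry ratio of this probe, -0.33, turned to 1.30 under the correction fitted on all spots and to 0.03 under its refit.

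Col2a1, the type II chain of cartilage, was at 1.64 ± 0.093 for DMSO (SD, 8 spots), 0.89 ± 0.157 for bilberry (10 spots), 1.55 ± 0.084 for delphinidin (8 spots) and 1.32 ± 0.068 for cyanidin (10 spots) on the probe at chr15:97804088-97804147. The bilberry spots, from 0.67 to 1.17, lay below all DMSO spots, from 1.49 to 1.76. A Col2a1 probe whose position overlaps it (chr15:97804108-97804167) went the other way with bilberry, at a ratio of 0.81 against -0.75, from a level of -2.82 with DMSO. Col11a1 was at 3.09, 2.98, 3.68 and 3.19 with DMSO, bilberry, delphinidin and cyanidin (chr3:114211239-114211297), and delphinidin was the highest, at 0.60 over DMSO. Its other probes gave delphinidin ratios of 0.84 and 0.40, while the Col11a1 probes ran from -0.11 to 0.76 with bilberry and from -0.54 to 0.54 with cyanidin. Of the chondrocyte markers, Sox9, Acan and Comp passed the background mark on all 4 arrays and Matn1 on none, and their summed linear scaled signal was 4.42 for DMSO, 6.40 for bilberry, 4.76 for delphinidin and 4.73 for cyanidin. Nearly all of this sum is Sox9 (4.17 for DMSO and 6.24 for bilberry), while Comp and Acan had bilberry ratios of -0.82 and 0.05. The part of these markers in the values of Col2a1, Col11a1 and Col11a2 was not tested.

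A Col3a1 probe designed on a cDNA clone (chr1:45268947-45269006) was at -5.15 for DMSO, -4.11 for bilberry, -5.50 for delphinidin and -5.40 for cyanidin. It is the other collagen probe past 2-fold higher with bilberry, at a ratio of 1.03, which was 2.21 under the background correction fitted on all spots, 0.63 under its refit and -0.50 under spike-in scaling. It and the dimmer Col11a2 probe are both dim, and both lie in a block of middle rows of the array that holds 34 of the 81 collagen probes. The share of all probes in that block was not counted, and the part of position in these values was not tested. Of all probes, 4.2% were over 2-fold higher with bilberry when the block was left out, against 4.3% with it. The 10 collagen probes with a mean linear scaled signal under 0.1, a limit chosen after seeing the data, had a median bilberry ratio of 0.59, against 0.17 for 4327 probes of all genes at that level and -0.09 for the 40 brighter collagen probes.

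**Figure D3:**
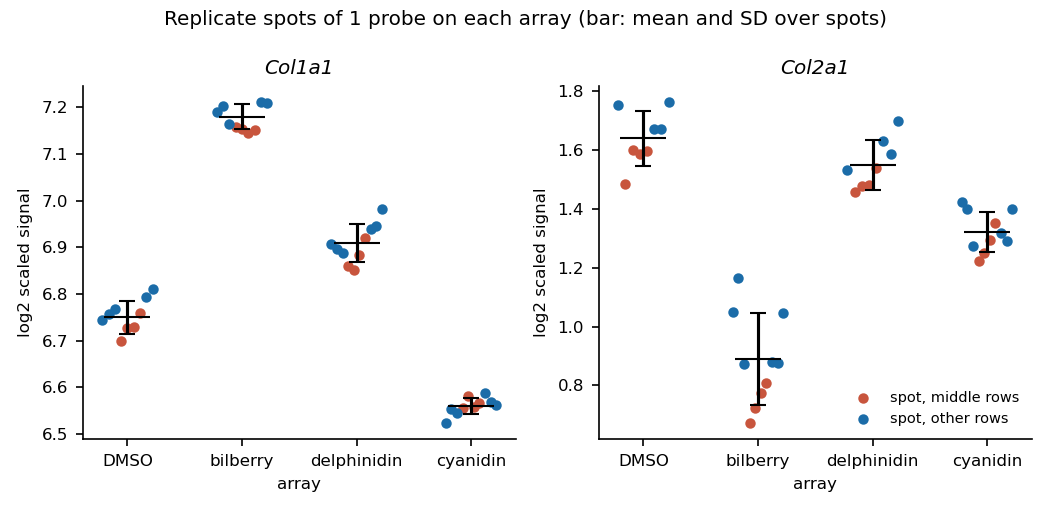
Log2 scaled signal of the replicate spots of the Col1a1 and Col2a1 probes that are spotted 10 times, on each array, with the mean and SD over spots that were not marked as outliers. Spots in the middle rows are shown apart from the others, and the Col1a1 means run from 6.56 with cyanidin to 7.18 with bilberry.

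The replicate spots can also be set out by their position on the array. For Col2a1 the spots in the middle rows read lower than those elsewhere on each array, by log2 differences of -0.15 for DMSO, -0.24 for bilberry, -0.12 for delphinidin and -0.07 for cyanidin. For Col1a1 the differences were -0.05, -0.04, -0.05 and 0.01. The bilberry level of this Col2a1 probe was below that of DMSO in both positions (0.74 against 1.57 in the middle rows and 0.98 against 1.71 elsewhere). The overlapping Col2a1 probe that went the other way lies in the middle rows, and the part of position in its value was not tested. Over all 245 probes spotted 10 times, the median SD of spots was between 0.033 and 0.039 per array among those well above background.

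The basement membrane collagens stayed within 2-fold of DMSO on all 7 probes well above background. Col4a1 and Col4a2, the chains of the type IV trimer found in most basement membranes, had nearly level values. Col4a1 was at 6.91 for DMSO, 7.02 for bilberry, 6.75 for delphinidin and 6.83 for cyanidin (chr8:11199818-11201652, a span that crosses a gap between aligned blocks). Col4a2 was at 7.03, 7.05, 6.94 and 7.03 in that order (chr8:11448812-11448871). The second probes of both genes had ratios to DMSO between -0.03 and 0.24. With bilberry the ratios of Col4a1 and Col4a2, 0.10 and 0.03, were -0.57 and -0.63 under the background correction fitted on all spots and -0.26 and -0.29 under quantile normalization. Among the chains of more restricted basement membranes, Col4a4 was at 0.54, 0.81, 0.17 and 0.46, lowest with delphinidin. The X-linked Col4a5 was at -1.74, -2.16, -1.74 and -1.94, and its neighbour Col4a6 was at -2.31, -1.67, -2.31 and -2.35. Bilberry was thus the lowest array for Col4a5 and the highest for Col4a6, by -0.42 and 0.64 against DMSO.

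The type VI chains of beaded filaments lay slightly lower with each treatment than the median gene. Col6a1 was at 6.79 for DMSO, 6.69 for bilberry, 6.28 for delphinidin and 6.48 for cyanidin (chr10:76152870-76152929). Delphinidin was the lowest array, at -0.51 to DMSO. Under the background correction fitted on all spots the bilberry ratio of Col6a1 was -0.73, below that of delphinidin at -0.47. Col6a2 was at 5.33, 5.02, 4.99 and 5.04 (chr10:76039902-76039961), with DMSO highest and the treated arrays close together. Under the background correction fitted on all spots they lay farther apart, at ratios of -0.92 for bilberry, -0.32 for delphinidin and -0.26 for cyanidin. A Col6a2 probe designed on a cDNA clone (chr10:76045538-76045597) had wider differences, at 1.85 for DMSO, 0.57 for bilberry, 0.93 for delphinidin and 1.22 for cyanidin, and was past 2-fold lower with bilberry at a ratio of -1.28. Col6a3, whose chain carries the longest array of globular domains, was at 6.89, 6.95, 6.77 and 6.81 (chr1:92597492-92597551), with ratios to DMSO of 0.06, -0.12 and -0.08, of which the bilberry value was -0.60 under the background correction fitted on all spots and -0.30 under quantile normalization.

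Among probes well above background on both arrays, the lowest ratios of the family were those of Col20a1 and Col7a1 with bilberry. For Col20a1 this did not hold under the background correction fitted on all spots, where its ratio was -0.50 and that of Col27a1 -0.94. Col7a1, the chain of anchoring fibrils, was at 2.61 for DMSO, 0.19 for bilberry, 1.55 for delphinidin and 2.08 for cyanidin (chr9:108841747-108841806). DMSO was highest and bilberry lowest, with ratios of -2.43, -1.06 and -0.54 for the 3 treatments, past 2-fold with bilberry and delphinidin. The bilberry value stayed past 2-fold under the 5 alternatives of scaling and background, from -3.95 to -2.35, and the delphinidin value fell short of it under spike-in scaling, at -0.80. Its promoter, shown above, holds GGGCGG 61 bases before the start. The same letters occur in 18 of the 32 collagen windows, and no link between them and these ratios was tested. Of the epithelial markers, the summed linear scaled signal was 0.0932 for DMSO, 0.0986 for bilberry, 0.113 for delphinidin and 0.129 for cyanidin. Most of this sum is Krt14 (0.0713 for DMSO), and its part in the Col7a1 levels was not tested. Col17a1, a membrane-spanning collagen of hemidesmosomes, was at -3.43, -4.10, -4.25 and -3.92 (chr19:47699715-47699774) and within 2-fold of DMSO.

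Among FACIT collagens, Col20a1 was at -0.59 for DMSO, -3.25 for bilberry, -1.54 for delphinidin and -1.22 for cyanidin (chr2:180946773-180946832). The order was that of Col7a1, with bilberry lowest at a ratio of -2.66, delphinidin at -0.95 and cyanidin at -0.63. Its only probe lies in the middle rows, and the bilberry ratio was -0.50 under the background correction fitted on all spots and -1.84 when that fit left out the 723 bilberry spots with a marked local background and the like spots of the other arrays. Col12a1, a long chain bound to type I fibrils, was at 0.16 for DMSO, -1.50 for bilberry, -0.60 for delphinidin and -1.09 for cyanidin (chr9:79385147-79385206). Here cyanidin was the nearer to bilberry, with ratios of -1.66, -0.76 and -1.25, past 2-fold with bilberry and cyanidin. The bilberry value fell short of 2-fold, at -0.89, under the background correction fitted on all spots. The cyanidin value stayed past 2-fold under the 5 alternatives of scaling and background, from -1.25 to -1.01. The second Col12a1 probe was lower with each treatment as well, at -0.88, -0.93 and -0.76. Col16a1 was at 5.09, 4.6, 4.75 and 4.66 (chr4:129601405-129601464), with DMSO highest and ratios of -0.49, -0.34 and -0.44 for bilberry, delphinidin and cyanidin. Its dimmer probe had 0.05, -0.16 and -0.14, so the direction with bilberry differs between the probes. Col9a2, a type IX chain that coats type II fibrils, was at -3.65, -3.09, -3.87 and -3.47, with ratios of 0.56, -0.22 and 0.18.

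The multiplexin Col15a1 had nearly the same ratio to DMSO with each treatment, although the bilberry value depends on the processing. Its levels were -1.37 for DMSO, -2.37 for bilberry, -2.49 for delphinidin and -2.46 for cyanidin (chr4:47333331-47333390). The treated arrays lay close together below DMSO, and the ratios of -0.99, -1.11 and -1.09 fall on either side of the 2-fold line, so the bilberry value is not counted. The probe lies in the middle rows, and the bilberry ratio turned to 0.26 under the background correction fitted on all spots and was -0.64 under its refit. Both counted values, those of delphinidin and cyanidin, fell short of 2-fold in some settings, the least being -0.85 under spike-in scaling. Col18a1, whose chain releases endostatin, was at 6.43, 6.39, 6.17 and 6.01 (chr10:76496791-76496850), with ratios of -0.04, -0.25 and -0.42 and similar values on its other probe (-0.09, -0.29 and -0.29). Its bilberry ratio was -0.69 under the background correction fitted on all spots, below -0.23 for delphinidin and -0.38 for cyanidin. Under quantile normalization the bilberry ratio was -0.31.

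Among the remaining collagens, Col8a1, a short-chain network collagen, was at 0.04 for DMSO, -0.45 for bilberry, 0.45 for delphinidin and 0.22 for cyanidin. It was lowest with bilberry and highest with delphinidin. The transmembrane Col23a1 was at -2.26, -2.61, -2.46 and -2.66, all within 2-fold of DMSO, although another probe had a bilberry ratio of 0.19. Col25a1, another transmembrane collagen, was well above background with DMSO (-5.34) and delphinidin (-5.40) but not with bilberry or cyanidin (chr3:130579191-130584273, a span that crosses a gap). DMSO was at least 2.21-fold and delphinidin at least 2.13-fold higher than cyanidin, each being a bound set by the lowest signal that was well above background on the dim array or the probe's own, whichever was higher. The bound for DMSO over bilberry was 1.10-fold, where the floor of the bilberry array is higher. Another Col25a1 probe (chr3:130585092-130585151) was well above background with DMSO only (-5.84), at least 1.62-fold higher than delphinidin and 1.63-fold higher than cyanidin, so the Col25a1 probes differ for delphinidin. Col9a3 was well above background on the other arrays but not with bilberry, where DMSO was at least 1.12-fold higher.

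Delphinidin and cyanidin were compared directly as 1 pair at a matched dose of 100 nM and the same day. The median difference, delphinidin less cyanidin, was -0.02 over 29 collagen genes and -0.03 over 12764 genes, and the 29 genes ranged from -0.53 to 0.50. Of 53 probes, 0 were over 2-fold higher with delphinidin (0.662% of all probes) and 1 (1.89%), the dimmer Col11a2 probe at -2.36, was over 2-fold lower (0.498% of all probes). That value was -0.87 under both background corrections, which leaves no collagen probe past 2-fold between the anthocyanidins there. By class the medians were 0.08 for fibrillar, -0.07 for basement membrane and -0.04 for other collagens. The fibrillar genes of type I were higher with delphinidin, by 0.35 for Col1a1 and 0.13 for Col1a2, as were Col3a1 by 0.22 and Col11a1 by 0.50. Of the 10 fibrillar genes 4 lay below 0, among them Col11a2 at -0.34 and Col5a3 at -0.20 on their brightest probes. Other probes of Col3a1 had 0.42 and -0.10. Col12a1 was also higher with delphinidin on its brightest probe, by 0.49, but not on its other probe, at -0.17. Col7a1 was lower, at -0.52. With 1 array each no interval for these differences can be given beyond the spread of spots, and a small difference does not show that the compounds act alike.

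Where a gene had more than 1 probe well above background, the probes often disagreed by more than replicate spots did. With bilberry, 17 genes had such probes, their ratios to DMSO spanned a median of 0.54, and 6 genes had ratios of both signs. With delphinidin and cyanidin, 18 genes each spanned medians of 0.21 and 0.19, with both signs in 3 and 5 genes, among the latter Col4a2, whose values both round to 0. Col11a2 was the widest with bilberry, at 3.73. The probes of Col1a1, Col4a2 and Col18a1 lay close together in all 3 comparisons.

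**Figure D4:**
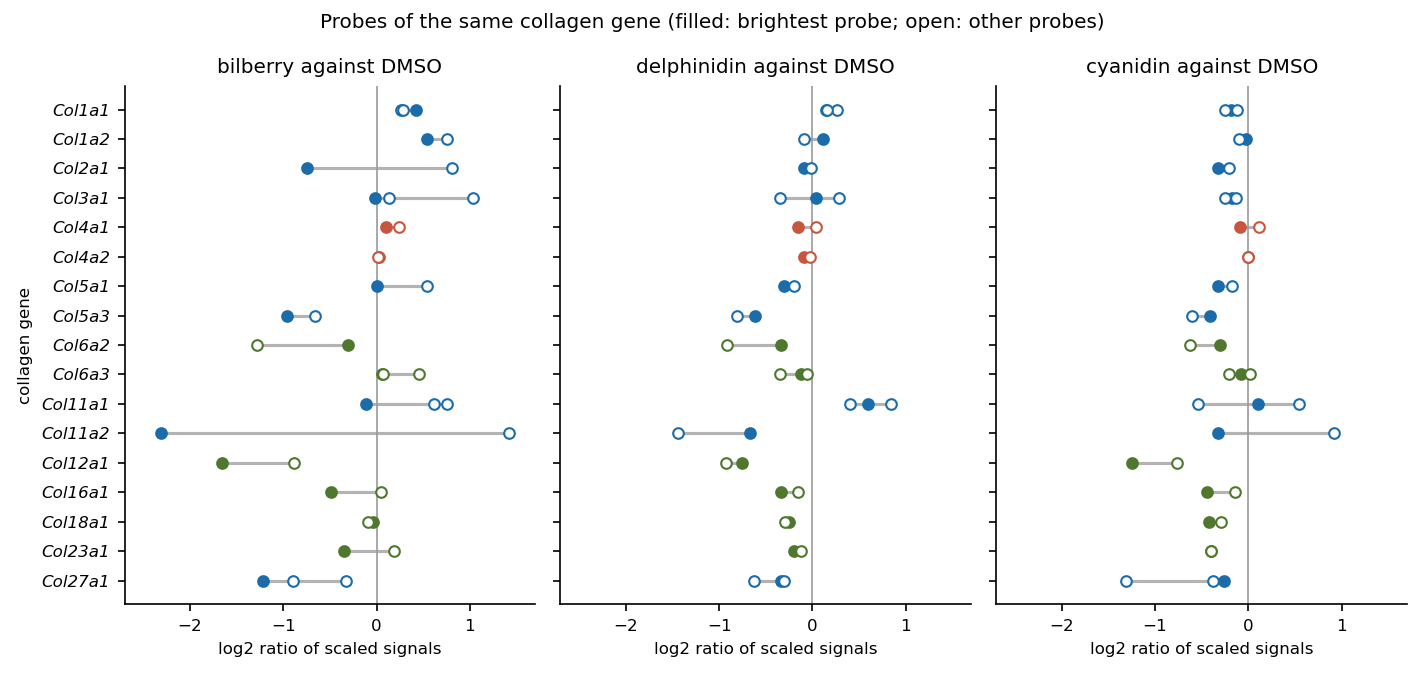
Log2 ratio to DMSO (horizontal axis) of each probe of the 17 collagen genes with at least 2 probes well above background on all 4 arrays; a filled point is the brightest probe, an open point another probe, and colours give the class as in the plot of ratios by gene. The widest span is that of Col11a2 in the bilberry panel, at 3.73.

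Collagen chains are processed by enzymes that hydroxylate, fold, cleave and cross-link them, and 43 such genes, with collagen-binding proteoglycans and receptors, were listed from general knowledge. With bilberry, 34 of the 43 were compared, 0 were over 2-fold higher (4.3% of all probes) and 3 (8.82%) were over 2-fold lower (6.93% of all probes). Each listed gene was taken by its brightest probe, whereas the shares beside it, here and below, count single probes, dim ones included. The measures are thus unlike. The median ratio was 0.22, against 0.17 for all genes. Dcn (decorin), a proteoglycan that binds fibrils, had linear scaled signals of 56.3 for DMSO, 19.6 for bilberry, 30.8 for delphinidin and 37.4 for cyanidin, with a bilberry log2 ratio of -1.52. Lum (lumican), of the same family, had 5.96, 1.64, 3.04 and 3.44, with a bilberry ratio of -1.86. Both were highest with DMSO and lowest with bilberry, whereas the other 3 genes of their group, Fmod, Bgn and Sparc, had bilberry ratios of 0.68, 0.41 and 0.27. Loxl4, a lysyl oxidase that cross-links fibrils, had 0.0678, 0.0240, 0.0317 and 0.0421, with ratios of -1.50 for bilberry and -1.10 for delphinidin, and was the only listed gene past 2-fold of 35 with delphinidin (2.86%, against 1.84% of all probes lower). With cyanidin 1 of 35 was past 2-fold (2.86%, against 2.23% of all probes lower), P4ha3, a chain of prolyl 4-hydroxylase, at -1.34. This dim gene had linear scaled signals of 0.0326 for DMSO, 0.00456 for bilberry, 0.0102 for delphinidin and 0.0129 for cyanidin. It was well above background with DMSO and cyanidin only, so it was not compared with bilberry or delphinidin, where its signals were lower still. The 16 or 17 genes of modification and folding compared had median ratios to DMSO of 0.25, -0.03 and -0.03 for bilberry, delphinidin and cyanidin, beside all-gene medians of 0.17, -0.02 and 0.01. Ratios of the processing genes and of the cell type markers were not recomputed under other settings, so how far they depend on the processing is unknown.

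Markers of the cell state moved on the same arrays. The summed linear scaled signal of the 6 fibroblast and preadipocyte markers was 419 for DMSO, 341 for bilberry, 298 for delphinidin and 325 for cyanidin. That of the 7 adipocyte markers was 391, 269, 425 and 462. The lower adipocyte sum with bilberry is mostly Fabp4 (265 for DMSO and 137 for bilberry), whereas Pparg, Cebpa, Lpl and Plin1 had bilberry log2 ratios of 0.15, 0.50, 0.02 and 0.39 and Cd36 -0.36. The higher sums with delphinidin and cyanidin rest on Lpl (95.6 for DMSO, 159 for delphinidin and 164 for cyanidin), whereas Fabp4 was at 231 and 258. Thy1 was past 2-fold lower with bilberry, at -1.20, as was Adipoq, at -1.07. The leukocyte and macrophage marker Csf1r was past 2-fold higher with bilberry, at 1.16, from a linear scaled signal of 0.0172 with DMSO. Of the other fibroblast markers, Dlk1 had a bilberry ratio of 0.31 and Pdgfra, Pdgfrb, Vim and Fn1 had ratios between -0.53 and -0.10. Most of the fibroblast sum is Vim (186 for DMSO), Fn1 (109 for DMSO) and Thy1 (65.2 for DMSO). That sum was highest with DMSO, as were many collagen levels, and its part in them was not tested. In bulk RNA, fewer cells of a type and less RNA per cell cannot be told apart.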

How the data were processed

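Each condition was read on 1 single-colour Agilent mouse array. The files that the authors deposited hold, per spot, a processed signal, which is an intensity with local background subtracted, and a series table repeats these values. Intensities were raised to a floor of 0.01 and scaled to the array's 75th percentile, as in the methods except that control spots were left out of the percentile. They were then converted to log2. Spots marked as outliers were left out, and spots of a probe were averaged. A probe was counted past 2-fold when its ratio was over 2 or under 1/2 with both arrays well above background. A gene was taken by its brightest probe with a value on all 4 arrays. With 1 array per condition no test was made, and the number of arrays limits precision. The members, classes, gene lists and the rule for named genes (each collagen gene past 2-fold or with a bound of 2-fold, and 12 genes of types I, III, IV, V, VI, XV and XVIII) were chosen with earlier results of these data known. The calculations were tested on simulated data. Alternatives covered background correction (normexp of limma 3.58.1 in R 4.3.3, offset 50), scaling, detection, marked spots, array rows, thresholds and probe choice. The middle rows left out are a block that an earlier look at these data had set apart. Processing genes and cell type markers were not put through the alternatives. Promoters came from RefSeq (GRCm38.p6). Python 3.11.15, numpy 2.4.6, pandas 2.3.3 and matplotlib 3.10.9 were used.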

Additional observations from a re-analysis of the deposited data

How the results depend on the processing

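The counts of collagen probes past 2-fold depend on the processing, and the collagen medians less the all-gene median kept their sign below 0 with bilberry, delphinidin and cyanidin under the 8 alternatives that could move them (spike-in scaling and another centring shift whole arrays, and the deposited table repeats the values). In what follows counts are of collagen probes, percentages are the share of all probes past the same fold in that direction, and medians are collagen less all genes. The normexp background correction fitted on all spots gave 14 probes higher with bilberry (31.7%) and a median of -0.69, 1 lower with delphinidin (0.65%), 1 lower with cyanidin (0.569%) and a cyanidin median of -0.22, and 0 lower for delphinidin against cyanidin (0.11%). On the bilberry array that fit was shifted by spots with a marked local background (fitted background mean -344.9, and -5.647 without them). Refitted without them it gave 0 higher with bilberry (1.99%) and a median of -0.35, and for the other comparisons the counts, shares and cyanidin median of the first fit. Quantile normalization gave 1 higher with cyanidin (0.821%). Spike-in scaling gave 0 higher and 40 lower with bilberry (0.123% and 77.9%), 1 higher and 1 lower with delphinidin (2.43% and 0.963%) and 1 higher with cyanidin (1.4%), and turned the bilberry ratios of the dimmer Col11a2 probe and the cDNA clone probe of Col3a1 to -0.11 and -0.50. Without the detection filter, over 80 collagen probes, there were 11 lower with bilberry (7.39%, median -0.37), 3 higher and 6 lower with delphinidin (2.63% and 4.26%, median -0.12), 6 lower with cyanidin (5.2%) and 3 higher for delphinidin against cyanidin (3.55%). The 24 probes that were well above background on no array and had a value on every array then enter. Their median bilberry ratio was 0.56, where the scaling alone gives 0.58. Their medians were -0.48 with delphinidin and -0.47 with cyanidin, where the scaling alone gives -0.23 and -0.24. Leaving out the middle rows, which left 30 collagen probes with bilberry and 33 otherwise, gave 0 higher with bilberry (4.2%, median -0.36), 1 lower with delphinidin (1.28%), a cyanidin median of -0.21 and 0 lower between the anthocyanidins (0.249%). A threshold of 1.5-fold gave 7 higher and 13 lower with bilberry (18.4% and 14.8%), 3 and 13 with delphinidin (3.96% and 7.02%), 1 and 8 with cyanidin (2.97% and 8.47%) and 2 higher between the anthocyanidins (2.62%), and one of 3-fold gave 0 higher and 4 lower with bilberry (0.67% and 2.31%), 0 lower with delphinidin (0.453%) and 0 lower with cyanidin (0.466%). The mean over all probes of a gene gave medians of -0.24 with bilberry and -0.20 with cyanidin. Of the 15 ratios past 2-fold, 6 stayed so under the first background fit, 8 under its refit, 14 under quantile normalization, 10 under spike-in scaling and all 15 with marked spots kept, with the deposited table and when arrays were centred on probes detected everywhere. Leaving out the middle rows removes the probes that lie in them, among them both probes past 2-fold higher with bilberry. The count of 0 higher there was thus fixed beforehand and tests no cause. Apart from the refit without spots of marked local background, the cause of these shifts was not tested. No paired analysis was possible because each condition has 1 array, and for the same reason no array could be left out.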
